A study of Arabidopsis thaliana with 16 samples.

Results

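Rosette leaves of FG and WT Arabidopsis thaliana plants that stayed on the ground were compared across genes, with daylength as a covariate. The arrays were chosen by their labels alone, and 8 of the 16 arrays of the study belong to the comparison, 4 of each genotype. FG plants are Col-0 carrying pHSP::FT and pHSP:GFP, in which the promoter of the small heat shock gene HSP17.4 drives the coding sequence of FT or GFP. The constructs were joined by crossing and the plants were homozygous. WT plants are Col-0 with neither construct.

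Each genotype was kept under LD (16 h light and 8 h dark) or under SD (8 h light and 16 h dark), which gave the groups FG-LD-gr, FG-SD-gr, WT-LD-gr and WT-SD-gr with 2 arrays each. All plants had been grown for 20 d before the launch of a satellite experiment, whose ground control they formed. By the methods, the first days of these were under LD for all plants and the rest already under LD or SD. Only the SD plants, of both genotypes, were heated, so daylength and heating cannot be told apart, whereas genotype was compared within each. The paper places the heating in the first days after launch and the harvest of the plants that were flown after landing, days later. It gives no separate harvest time for the ground plants. For each treatment 4 leaves were taken from 2 plants, in 1 ground unit, and the methods call the arrays biological replicates without saying which leaves or plants each array held. The p-values measure the spread between these arrays. In the fit with daylength as a covariate, that spread also holds any change of the genotype difference between daylengths. A transgene driven by a heat shock promoter may be read in any leaf cell that answers to heat, so FG is no model of the normal site of FT transcription in the phloem.

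FT is the florigen, a small mobile protein that is made in leaf veins under inductive daylength and travels to the shoot apex, where it acts with the bZIP factor FD. In leaves and apex it is known to act upstream of the MADS-box genes SOC1, FUL and AP1. Under long days FT is switched on by CONSTANS (CO), whose level follows the circadian clock. Leaves also hold the defence pathway of salicylic acid, in which EDS1 and PAD4 act upstream of ICS1, the enzyme that makes the hormone, and NPR1 passes the signal on to WRKY factors and to pathogenesis-related (PR) genes. Jasmonate signalling, which opposes the salicylic acid pathway at several points, is held back by the JAZ repressors.

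All values are log2 of the deposited array signal, in which each array had been scaled to one common mean. Signals below log2 6.23 (a signal of 75) were set to that floor for the fits, and the single array values given here are as deposited. Where some arrays of a gene lay below the floor, its difference understates the gap. Probe sets above the floor on both arrays of at least 1 of the 4 groups were tested, which kept 13212 of 22810. Each array had between 11818 and 13102 present calls, and the number of arrays limits the precision. The SD between the arrays of a group was 0.56 in FG-LD-gr, 0.628 in WT-LD-gr, 0.631 in FG-SD-gr and 0.761 in WT-SD-gr. FG and WT arrays did not separate on the first 2 principal components, which held 28.8% and 23.7% of the variance. Single gene groups stood apart on WT-SD-gr 1 (high heat shock genes) and on FG-SD-gr 2 (low light-harvesting genes), and values without them are given where they matter. The 3′ to 5′ difference of GAPDH, a measure of RNA integrity, averaged 1.52 in FG and 1.35 in WT on the log2 scale (two-sided exact permutation test, p = 0.343, n = 4 arrays each).

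FT, the gene carried by the construct, was the first check of the labels. Its log2 signal was 8.21 and 9.49 on the FG-LD-gr arrays and 7.48 and 9.67 on the FG-SD-gr arrays. In WT the signals were 4.98 and 2.84 (LD) and 2.09 and 4.28 (SD). Every FG array was above the floor and every WT array below it, and FT was called present on 4 of 4 FG arrays and on 0 of 4 WT arrays. FG was at least 5.58-fold higher, since WT lay below the floor (at least 2.48 ± 0.48 on the log2 scale, SE, n = 4 arrays per genotype). The limma adjusted p over all probe sets was 0.607, and an exact permutation test on this 1 gene gave p = 0.0286, two-sided, the smallest that 4 against 4 arrays allow. The lower bound was 2.62 under LD, where no plant was heated, and 2.34 under SD, where all were, and these differed by −0.27 ± 1.04 (limma, unadjusted p = 0.8). The position of the probes within FT was not available from the labels or the methods, so transgene and endogenous transcripts cannot be told apart.

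The endogenous gene whose promoter drives the constructs was read as well. HSP17.4, a cytosolic small heat shock protein, gave 5.72 and 6.46 in FG-LD-gr, 6.27 and 5.41 in FG-SD-gr, and 6.93 and 5.93 in WT-LD-gr. In WT-SD-gr it was 10.81 and 5.41, so it was clearly above the floor on WT-SD-gr 1 alone. It did not pass the filter and was not tested.

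**Figure D1:**
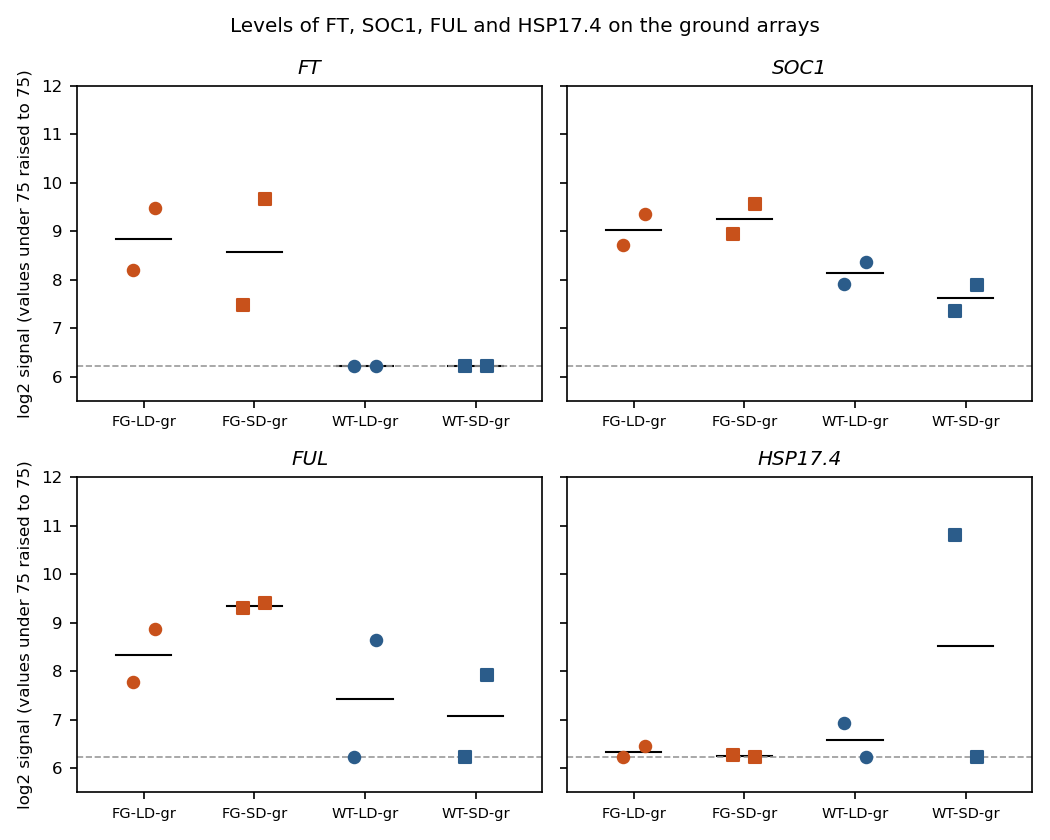
Log2 signal on each of the 8 ground arrays (points) for FT, SOC1, FUL and HSP17.4, with values under the floor drawn at it (dashed line, log2 6.23) and bars at the mean of the 2 arrays of a group. FT and SOC1 lie higher on all 4 FG arrays than on any WT array, FUL overlaps, and HSP17.4 is high on 1 WT-SD-gr array.

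Among the targets of florigen, SOC1 was higher in FG under both daylengths. SOC1, a MADS-box integrator of flowering signals, gave 8.72 and 9.35 in FG-LD-gr and 8.95 and 9.56 in FG-SD-gr, against 7.92 and 8.38 in WT-LD-gr and 7.36 and 7.89 in WT-SD-gr. The genotypes did not overlap, and FG was 2.40-fold higher (1.26 ± 0.30, adjusted p = 0.74). FUL, a MADS-box gene that acts beside SOC1 in the apex and in leaves, gave 7.79 and 8.88 in FG-LD-gr and 9.31 and 9.41 in FG-SD-gr. Its WT values were 5.85 and 8.64 under LD and 3.29 and 7.91 under SD, and the genotypes overlapped (1.59 ± 0.63, adjusted p = 0.855). SEP4, a SEPALLATA gene of the floral meristem, gave 6.94 and 8.13 in FG-LD-gr and 7.67 and 8.14 in FG-SD-gr. In WT it gave 2.89 and 5.65 under LD and 5.89 and 6.87 under SD, all below the FG arrays (1.33 ± 0.31, adjusted p = 0.732). SEP4 passed the filter only through FG groups.

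Most other genes of the florigen list were not above the filter. Of its 19 genes 5 passed the filter, and their median difference, 1.26, was the value of SOC1. The 5 include FT itself, carried by the construct, and FT, FUL and FTIP1 passed the filter only through FG groups. This median was therefore not set against that of all probe sets. FT, SOC1 and FUL were at least 2-fold higher at an unadjusted p under 0.05 (limma), as were 0.863% of all probe sets, while SPL3 (−0.16 ± 1.08) was not. Since FT and FUL entered through FG groups alone, this is not read as a result about the list. FTIP1, which helps FT leave its companion cells, was called present on 0 of 4 FG arrays and ran from 5.65 to 7.01 in FG and from 5.00 to 7.97 in WT. SPL3, a promoter of the floral transition, differed more between arrays of a group than between genotypes, from 4.23 to 10.51 in FG and from 5.65 to 9.16 in WT. The 14 genes below the filter include the meristem identity genes AP1, LFY and CAL, the FT partner FD, and the FT relatives TSF, TFL1, BFT and MFT, and 12 of the 14 were called present on no ground array. Whether SOC1 and FT also differed on the flown plants was read from the other 8 arrays. SOC1 was 1.43 higher in FG there. FT was below the floor on all 4 flown WT arrays (4.82 to 5.94) and gave 6.25 and 3.05 in flown FG under LD and 6.20 and 7.69 under SD. Its difference in flight is therefore a bound of at least 0.37, which rests almost wholly on the 1 array at 7.69.

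Across all genes, the comparison of FG with WT on the ground made no call. A probe set was called at an adjusted p under 0.05 (limma, Benjamini-Hochberg) with at least a 2-fold difference, and 0 of 13212 (0%) were called. The lowest adjusted p was 0.188. Before adjustment 755 probe sets (5.71%) had a p under 0.05, and 341 of them also differed at least 2-fold, 114 with FG higher (0.863%) and 227 with FG lower (1.72%), or 170 and 163 under spike-in scaling. A plain unmoderated two-sample test per probe set was run as well, with the 2-fold minimum of the study's methods, which name no test for the arrays. The same sign was also needed in every difference between same-numbered FG and WT arrays. It gave 204 probe sets before adjustment and 0 after it. All 4 FG arrays lay above all 4 WT arrays for 165 probe sets (1.25%) and below them for 255 (1.93%). The genes described next therefore stand at the head of a ranking, and none passed the adjusted test.

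Among the 10 genes that ranked highest with FG above WT, 8 others stand beside FT and SOC1. CYP81D11, a cytochrome P450 known to answer to jasmonate and to reactive chemicals, carried the smallest p and is titled CYP81D1 in the array's annotation. It gave 7.86 and 8.11 in FG-LD-gr and 8.83 and 8.55 in FG-SD-gr, while all WT arrays were below the floor, between 4.77 and 5.58. FG was at least 4.31-fold higher (at least 2.11 ± 0.23, adjusted p = 0.188). MPL1, a lipase known from the response to the green peach aphid, gave 11.61 and 12.73 in FG-LD-gr and 11.10 and 12.81 in FG-SD-gr. Its WT signals were 8.86 and 10.37 under LD and 9.52 and 7.93 under SD, and FG was 7.43-fold higher (2.89 ± 0.57, adjusted p = 0.607). JAZ8, a jasmonate repressor that resists degradation, gave 10.18 and 10.85 in FG-LD-gr and 11.89 and 11.74 in FG-SD-gr. It gave 8.92 and 7.92 in WT-LD-gr and 9.62 and 8.31 in WT-SD-gr, with FG 5.54-fold higher (2.47 ± 0.39, adjusted p = 0.607).

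The others of the 10 differed less. GSTU12, a tau-class glutathione transferase, ran from 8.19 to 9.86 in FG and from 5.84 to 8.06 in WT (1.98 ± 0.48, adjusted p = 0.74). AT5G15240, an amino acid transporter family protein, ran from 7.30 to 8.74 in FG and from 5.15 to 6.59 in WT (1.68 ± 0.31). AT3G57770, annotated as a putative protein kinase, ran from 9.26 to 9.98 in FG and from 7.67 to 8.41 in WT (1.39 ± 0.25). PP2-A13, of the phloem protein 2 family of lectins, and SEP4 complete the group. FT, CYP81D11, AT5G15240 and SEP4 passed the filter only through FG groups, so their place in the ranking rests in part on the filter. With signals raised to the floor, all 10 had the same sign on the flown plants, as had 56.3% of all probe sets, but FT and CYP81D11 lay mostly at or near the floor there.

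The 10 genes that ranked highest with FG below WT held several receptors and regulators of defence. RLP41, a receptor-like protein, gave 7.28 and 5.56 in FG-LD-gr and 7.84 and 5.90 in FG-SD-gr. Its WT signals were 11.34 and 9.95 under LD and 10.50 and 9.48 under SD, and FG, with 2 arrays below the floor, was at least 10.7-fold lower (−3.42 ± 0.51, adjusted p = 0.607). CRK37, a cysteine-rich receptor-like kinase, gave 7.15 and 7.16 in FG-LD-gr and 6.38 and 5.07 in FG-SD-gr. In WT it gave 9.35 and 10.59 under LD and 8.85 and 8.41 under SD, with FG, 1 array of which lay below the floor, at least 5.95-fold lower (−2.57 ± 0.31, adjusted p = 0.188). AT5G45000, annotated as a TIR-NBS-LRR protein, the class of intracellular immune receptors that signal through EDS1, ran from 6.43 to 7.52 in FG and from 8.29 to 8.99 in WT (−1.76 ± 0.30).

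WRKY70, a transcription factor that turns on salicylic acid genes and holds back jasmonate genes, gave 10.39 and 9.89 in FG-LD-gr and 10.79 and 9.53 in FG-SD-gr. On the WT arrays it gave 12.02 and 12.92 under LD and 11.69 and 12.07 under SD, 4.07-fold above FG (−2.02 ± 0.36, adjusted p = 0.607). Its close relative WRKY54 gave 8.30 and 5.29 in FG-LD-gr and 7.20 and 5.54 in FG-SD-gr. It gave 9.74 and 10.65 in WT-LD-gr and 8.72 and 9.29 in WT-SD-gr, at least 6.11-fold above FG, of which 2 arrays lay below the floor (−2.61 ± 0.49, adjusted p = 0.607). Both genotypes were well apart for these paralogs under each daylength.

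The remaining members of the 10 came from other classes. COL1, a CONSTANS-LIKE gene, ran from 8.68 to 9.29 in FG and from 9.70 to 10.60 in WT (−1.35 ± 0.23). CYP79B3, which turns tryptophan into the precursor of indole glucosinolates and camalexin, ran from 7.17 to 8.79 in FG and from 8.79 to 10.20 in WT (−1.67 ± 0.30), where the nearest arrays of the genotypes were almost equal. UGT73D1, a glycosyltransferase, differed by −1.47 ± 0.27. SFR6, a Mediator subunit needed for cold acclimation and for defence gene transcription, differed by −1.25 ± 0.24, and ATMG00060, a mitochondrial NADH dehydrogenase subunit, by −1.76 ± 0.32. RLP41, WRKY54 and ATMG00060 passed the filter only through WT groups, so their place in the ranking rests in part on the filter. Only 5 of the 10 kept their sign on the flown plants, beside the 56.3% of all probe sets.

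Most genes of the salicylic acid pathway had lower signals in FG, though none passed the adjusted test. All 20 genes of the list were tested, 19 had a negative difference, and the median was −1.79, beside 0.018 over all probe sets. Of the 20, 12 were at least 2-fold lower at an unadjusted p under 0.05, beside 1.72% of all, and none was higher. For 6 of them (30%, beside 1.93% of all) every FG array lay below every WT array. The summed signal of the 20 genes ran from 9538 to 23610 on the FG arrays and from 33400 to 61180 on the WT arrays, without overlap. The median was −2.15 under LD and −1.48 under SD, and 0.22 on the flown plants. Without WT-SD-gr 1 it was −1.65, and leaving out each array in turn kept it between −2.04 and −1.36.

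Beside WRKY70 and WRKY54, LURP1 and SARD1 had the smallest p of the list. LURP1, a gene named for its late response to a downy mildew pathogen, gave 8.08 and 6.63 in FG-LD-gr and 9.66 and 9.35 in FG-SD-gr. In WT it gave 13.10 and 13.25 under LD and 10.33 and 12.20 under SD (−3.79 ± 0.85, adjusted p = 0.681). SARD1, a transcription factor that turns on ICS1, gave 9.88 and 9.30 in FG-LD-gr and 8.41 and 7.50 in FG-SD-gr, and between 10.42 and 10.82 on the WT arrays (−1.89 ± 0.38, adjusted p = 0.629). The WT arrays were close together and the FG-SD-gr arrays lowest. A second probe set of SARD1 gave −1.81.

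Upstream and downstream members are named after their values were seen. PAD4, the lipase-like partner of EDS1, ran from 7.37 to 10.26 in FG and from 10.39 to 11.03 in WT (−2.004 ± 0.539). ICS1 differed by −2.37 ± 0.72 and overlapped, and the receptor NPR1 differed by −0.63 ± 0.25, the smallest difference among the 6 genes without overlap. FMO1, which makes the mobile immune signal N-hydroxypipecolic acid, gave 3.54 and 7.05 in FG-LD-gr and 8.95 and 7.93 in FG-SD-gr, against 10.85 and 11.80 in WT-LD-gr and 13.35 and 8.14 in WT-SD-gr (−3.49 ± 1.06). FMO1 thus overlapped between genotypes under SD through WT-SD-gr 2. The output genes PR1 (−1.97 ± 0.70), PR2 (−3.05 ± 1.05) and PR5 (−2.49 ± 0.88) overlapped as well. PR1 gave 9.68 on WT-SD-gr 2, inside the FG range of 9.56 to 10.61. GRXC9, a glutaredoxin of the pathway, was the 1 member with a positive difference (0.41).

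**Figure D2:**
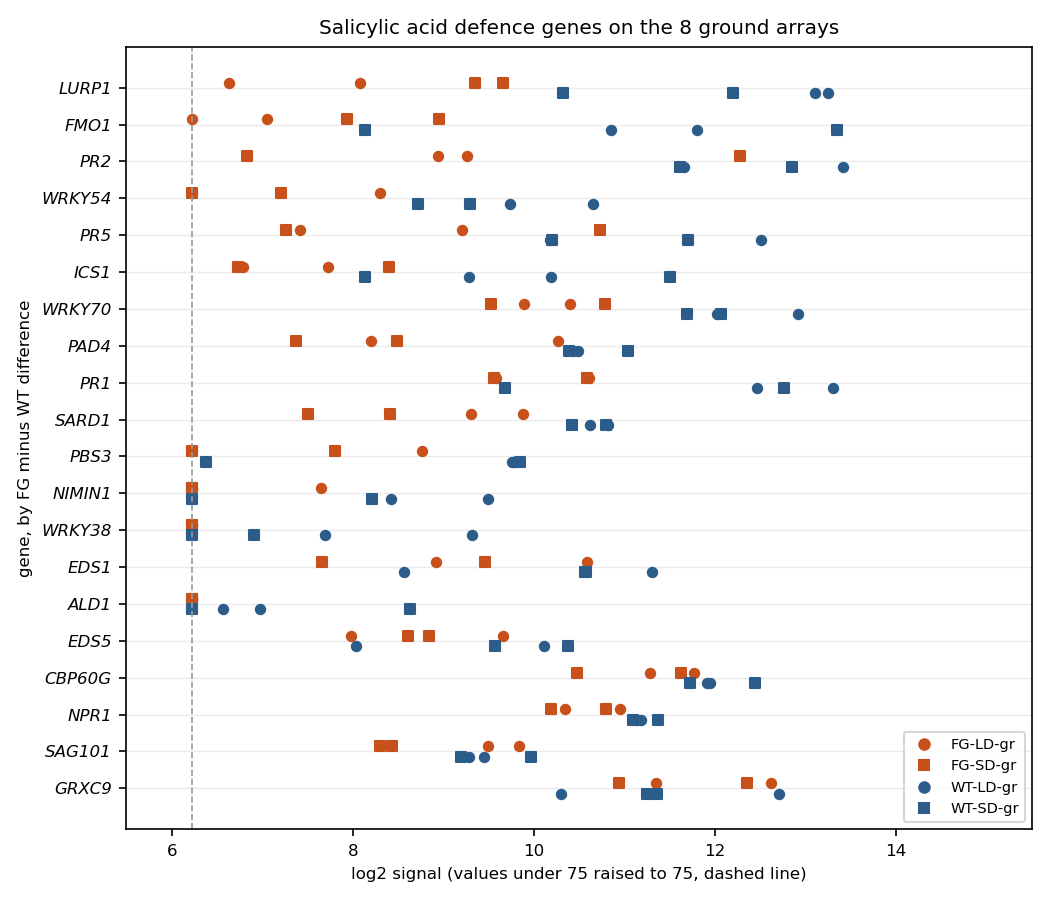
Log2 signal (x axis, values under the floor drawn at it) of the 20 salicylic acid genes (rows, ordered by the difference of the genotypes) on each of the 8 ground arrays, with FG in orange, WT in blue, LD as circles and SD as squares. FG and WT points separate for LURP1, WRKY54, WRKY70, PAD4, SARD1 and NPR1 and overlap for the other 14 genes.

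Jasmonate genes were spread around a small positive difference. Of 25 genes 21 were tested, 16 had a positive difference, and the median was 0.22, 0.0038 without WT-LD-gr 2 and 0.50 without WT-SD-gr 1. JAZ8 was the 1 member without overlap (4.76%, beside 1.25% of all probe sets with FG above). JAZ7 (1.74 ± 0.82) and JAZ5 (0.91), of the same repressor family, were higher in FG by differences near or inside their spread, and JAR1, the enzyme that makes the active hormone conjugate, was lower (−0.97 ± 0.41). On the flown plants the median was −0.43.

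In the photoperiod list, 3 genes were apart between the genotypes. Of 18 genes 15 were tested, 10 had a negative difference, and the median was −0.21 (−0.048 without WT-SD-gr 1 and −0.37 without WT-SD-gr 2). CO itself was below the floor on all 4 FG arrays and on 2 of 4 WT arrays, which leaves its difference unresolved, and GI, the clock-linked activator of CO, differed by 0.04. COL1, CDF3 and PCC1 were lower on all FG arrays, 3 of 15 beside 1.93% of all. PCC1, a small protein known to answer to both the clock and pathogens, gave 10.45 and 7.93 in FG-LD-gr and 10.59 and 8.73 in FG-SD-gr. In WT it gave 13.57 and 13.99 under LD and 11.90 and 12.66 under SD (−3.61 ± 0.69, adjusted p = 0.607). The repressors of CO transcription CDF2 (−0.80 ± 0.28) and CDF3 (−0.78 ± 0.28) differed less.

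Clock genes had mostly negative differences, none of which passed the adjusted test. Of 18 genes 15 were tested, and 13 had a negative difference with a median of −0.40. The genotypes overlapped in all 15, where 1.25% of all probe sets lay wholly above and 1.93% wholly below. LHY, a morning MYB factor, gave 8.89 and 7.67 in FG-LD-gr and 7.51 and 4.11 in FG-SD-gr, against 9.54 and 9.68 in WT-LD-gr and 7.19 and 7.82 in WT-SD-gr (−0.98 ± 0.40). FG-SD-gr 2 was lowest for LHY, and without that array the median of the list was −0.10. PRR5 differed by −0.66 and PRR3 by 0.60, so members of the same pseudo-response regulator family lay on both sides.

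Genes known to answer to darkness and sugar starvation had positive differences, none of which passed the adjusted test. All 10 were tested and were positive, with a median of 1.02 (1.49 under LD and 0.58 under SD). The genotypes overlapped in all 10, where FG lay wholly above WT for only 1.25% of all probe sets. DIN11, a dioxygenase, gave 11.86 and 10.61 in FG-LD-gr and 9.98 and 14.33 in FG-SD-gr, against 8.23 and 4.70 in WT-LD-gr and 11.15 and 7.38 in WT-SD-gr (3.45 ± 1.12, adjusted p = 0.841). It was the 1 member at least 2-fold higher at an unadjusted p under 0.05. DIN2, a beta-glucosidase, differed by 2.58 ± 1.25, and ASN1, which makes asparagine as a nitrogen store, by 2.04. Single arrays weighed on this list, and its median was 0.59 at the lowest, without WT-LD-gr 1.

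Abscisic acid and cold genes leaned the other way. Of 25 genes 20 were tested, 17 had a negative difference, and the median was −0.88. The genotypes overlapped in all 20, where FG lay wholly below WT for only 1.93% of all probe sets. RD29A, a late-response gene of drought and cold, gave 10.61 and 8.37 in FG-LD-gr and 13.45 and 2.48 in FG-SD-gr, and between 10.98 and 13.44 on the WT arrays (−2.72 ± 1.41). Its spread within FG-SD-gr exceeded the difference of the genotypes. The cold factors CBF1 (−1.43 ± 0.57) and CBF3 (−0.60), and ABI1, a phosphatase that holds back abscisic acid signalling (−0.93), were lower, and the protease subunit ERD1 was higher (0.58). The median was −0.38 without FG-SD-gr 2 and −0.40 without WT-SD-gr 1.

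Heat shock genes depended on 1 WT array. Of 29 genes 17 were tested, and all 17 had a negative difference with a median of −0.64 (−0.21 under LD and −1.16 under SD). The genotypes overlapped in all 17, where FG lay wholly below WT for only 1.93% of all probe sets. The mean log2 signal of the 26 genes with a probe set was 8.32 and 8.38 in FG-LD-gr, 8.19 and 7.67 in FG-SD-gr, 8.83 and 8.06 in WT-LD-gr, and 9.97 and 7.94 in WT-SD-gr. Without WT-SD-gr 1 the median was −0.070 and 6 of the 17 differences were positive, and without WT-SD-gr 2 it was −1.32. HSP101, a chaperone that frees aggregated proteins, gave 12.11 on WT-SD-gr 1 and 7.10 on WT-SD-gr 2, a gap between arrays of 1 group that exceeded the difference of the genotypes (−1.50 ± 1.08). In FG-SD-gr, which was heated as well, it gave 7.79 and 6.35, below the 8.51 and 8.34 of the unheated FG-LD-gr. By the paper, the heating fell in the first days after launch. It gives no separate harvest time for the ground plants, so the time between heating and harvest is not known.

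**Figure D3:**
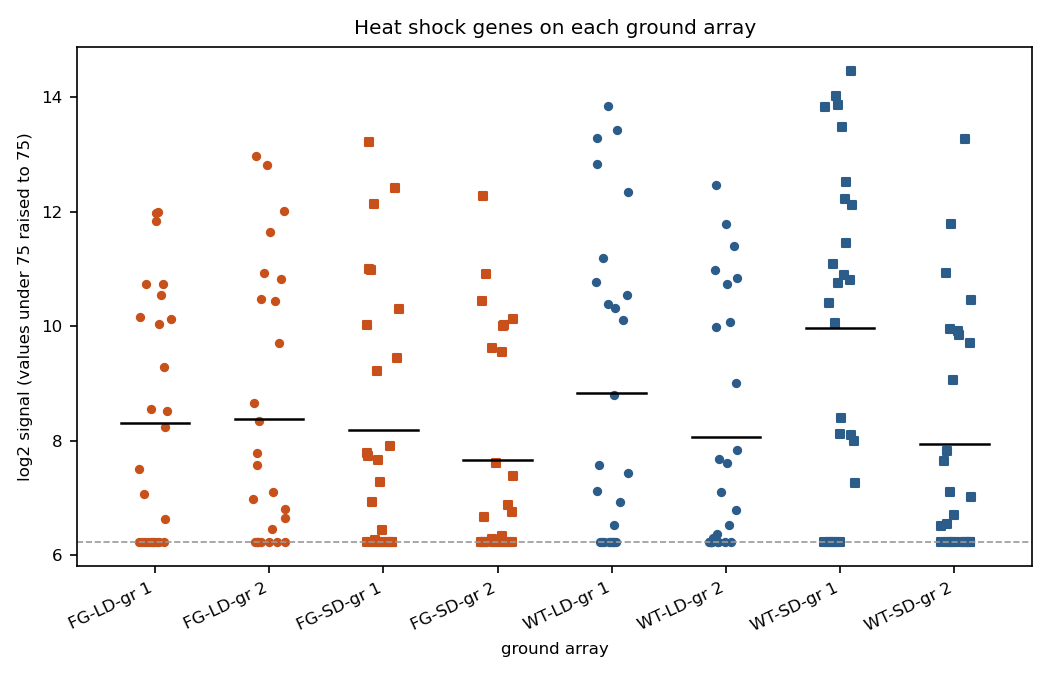
Log2 signal (y axis, values under the floor drawn at it) of the 26 heat shock genes with a probe set, tested or not, on each of the 8 ground arrays, 1 point per gene with a bar at the mean. The mean is 9.97 on WT-SD-gr 1 and between 7.67 and 8.83 on the other arrays.

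Photosynthesis genes, read as a check of leaf identity, were high on all arrays and did not differ by genotype in a stable way. The 14 tested Calvin cycle genes had a median difference of 0.16 (0.49 under LD and −0.49 under SD), and the 8 tested light-harvesting genes of −0.21 (0.44 under LD and −0.77 under SD). RCA, which keeps Rubisco active, ran from 10.46 on FG-SD-gr 2 to 13.30 on FG-SD-gr 1. The mean of the light-harvesting genes ran from 10.63 on FG-SD-gr 2 to 13.51 on WT-SD-gr 2, both heated groups. Either median turned sign when 1 array was left out, the Calvin cycle median to −0.26 without FG-LD-gr 1 and the light-harvesting median to 0.33 without WT-SD-gr 2.

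The medians of the remaining lists lay between −0.11 and 0.17. Floral repressors (9 of 15 tested) had a median of 0.019, which quantile scaling turned to −0.035, and −0.26 without FG-LD-gr 1. SVP, which holds FT and SOC1 down, differed by −0.79 ± 0.36. Gibberellin genes (8 of 16) had a median of −0.11 (0.073 without WT-SD-gr 2), low oxygen genes (11 of 15) of −0.11, which spike-in scaling turned to 0.0030 and which was 0.18 without WT-LD-gr 2, senescence genes (12 of 14) of 0.053 (0.47 without WT-SD-gr 1), and touch and wall genes (8 of 16) of 0.17, which was −0.036 without WT-SD-gr 1. Of 15 flavonoid genes CHI alone was tested (−0.72 ± 0.31), and 13 were called present on no ground array.

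**Figure D4:**
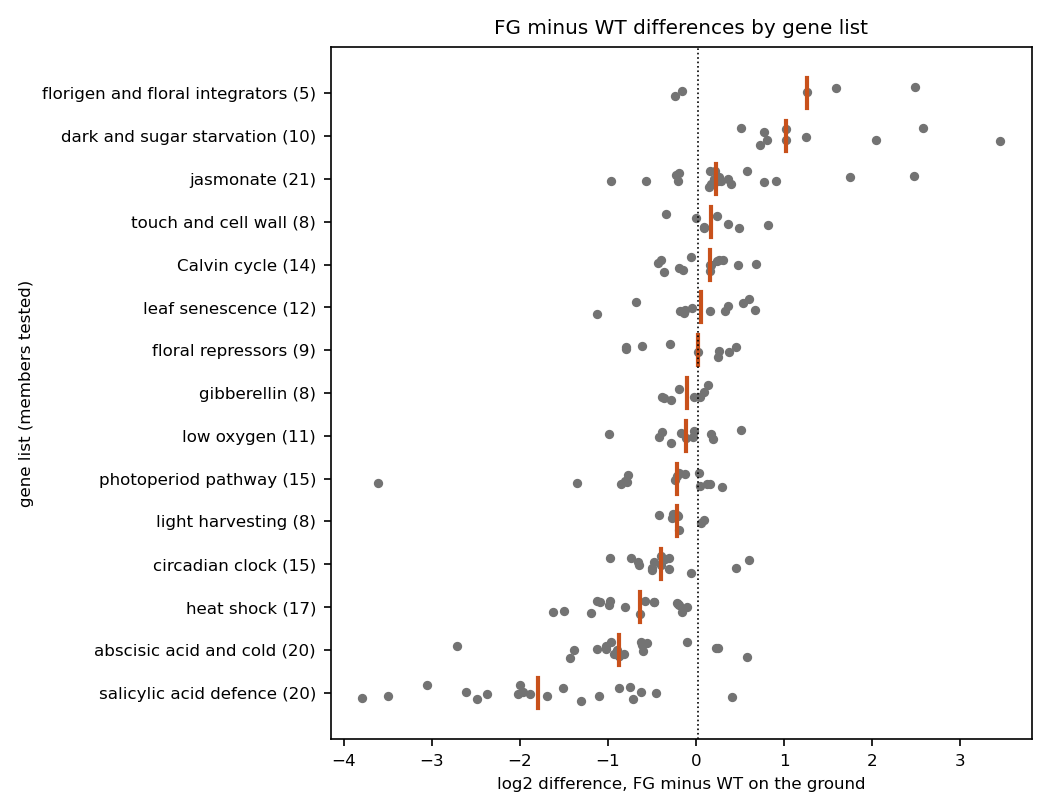
Log2 difference of FG minus WT on the ground for each tested gene (points) of the 15 lists with at least 5 tested, with an orange bar at each list's median and a dotted line at the median of all probe sets, 0.018. The salicylic acid genes have a median of −1.79, and the starvation genes one of 1.02.

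Markers of other organs were mostly called absent, beside the high photosynthesis genes of the labelled rosette leaf. Of 8 flower organ markers only PI was tested (0.35), 6 were never called present, and their summed signal ran from 269.5 to 736.9 in FG and from 185.8 to 465.2 in WT. None of 5 shoot meristem markers was tested and 4 were never present, with STM, WUS and CLV3 among them (64.14 to 120.3 in FG, 63.51 to 88.66 in WT). Of 8 root markers NRT2.1 alone was tested (−0.25), and 4 were never present (89.98 to 345.8 in FG, 135.1 to 416.4 in WT). Guard cell markers summed to between 421 and 689.7 in FG and between 270 and 784.9 in WT, with FAMA at 0.51 and KAT1 at −0.26. The ranges of the genotypes overlapped for all 4 lists. In whole leaves, fewer cells of a type and less RNA per cell cannot be told apart.

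Within each daylength the comparison of 2 with 2 arrays also made no call. Under LD 0 of 13212 probe sets (0%) were called (smallest adjusted p = 0.51), 473 had an unadjusted p under 0.05, and with at least a 2-fold difference 146 were higher (1.11%) and 201 lower (1.52%) in FG, or 171 and 150 under spike-in scaling. Under SD 0 (0%) were called (smallest adjusted p = 0.886), 513 had an unadjusted p under 0.05, and 147 were higher (1.11%) and 225 lower (1.7%), a split that spike-in scaling turned to 284 higher and 131 lower. The plain unmoderated two-sample test, with the same 2-fold and same-sign conditions, gave 194 probe sets under LD and 132 under SD before adjustment. It gave 0 in each after adjustment.

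The genes of smallest p under LD were chosen by that contrast, so their values under SD are given as a description beside it. LURP1 differed by −5.82 ± 0.70 under LD and by −1.75 ± 0.70 under SD. ANK, an ankyrin-repeat protein, gave 4.65 and 5.23 in FG-LD-gr, below the floor, and 11.27 and 9.59 in WT-LD-gr, so the difference of −4.205 ± 0.535 is a bound. Under SD it gave 6.55 and 2.77 in FG and 7.60 and 7.58 in WT. AT3G22240, an unnamed gene near PCC1 in the annotation, gave 11.45 and 10.77 in FG-LD-gr against 14.77 and 15.24 in WT-LD-gr (−3.89 ± 0.49), and 11.91 and 12.41 against 12.40 and 13.60 under SD (−0.84 ± 0.49). AT3G28510, an AAA-type ATPase, differed by −2.57 ± 0.38 under LD. CRK37, the fifth of them, differed by −2.82 ± 0.45 under LD.

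Under SD the leading genes were CYP81D11 (at least 2.46 ± 0.29), AT5G15240 (at least 2.35 ± 0.31), SARD1 (−2.65 ± 0.41), AT1G06830, a monothiol glutaredoxin (−2.01 ± 0.32), and AT2G28080, a UDP-glycosyltransferase (−2.26 ± 0.40). CYP81D11 and SARD1 had the same sign under LD, with at least 1.76 ± 0.29 and −1.13 ± 0.41. AT1G06830 did not, with 1.19 ± 0.32 under LD.

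The difference between the daylengths was tested itself, and 0 of 13212 probe sets (0%) were called (limma, smallest adjusted p = 0.999). At an unadjusted p under 0.05, 277 passed (2.1%), 159 with a more positive difference under SD and at least 2-fold (1.2%) and 111 with a more negative one (0.84%). AT1G06830 gave 7.51 and 7.50 in FG-LD-gr and 6.41 and 1.67 in WT-LD-gr, but 6.37 and 6.82 in FG-SD-gr and 8.40 and 8.81 in WT-SD-gr. The order of the genotypes was thus opposite under the 2 daylengths (difference −3.20 ± 0.45, unadjusted p = 2.2e-04, adjusted p = 0.999). CLT3, a plastid thiol transporter of the chloroquine-resistance transporter family, went the other way, with −1.54 under LD and 1.02 under SD. LURP1 had an unadjusted p of 0.0048 and an adjusted p of 0.999, and was not called.

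Whether the difference of the genotypes was the same on the ground as on the flown plants was tested on all 16 arrays, an analysis added after the data were seen. Of 14286 probe sets 17 (0.119%) were called (limma, adjusted p under 0.05 and at least 2-fold), and 881 (6.17%) had an unadjusted p under 0.05. For 16 of the 17 the difference of FG minus WT was lower on the ground, and for 16 its sign was opposite in the 2 settings. The 4 flown groups had the same genotypes, daylengths and heating, in a separate unit. Flown plants were harvested after landing, and the paper counts altered gravity during landing among the spaceflight conditions. Which of these conditions bore on the differences was not tested.

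Named salicylic acid genes stood among the 17. LURP1, lower in FG on the ground, gave 13.43 and 13.16 in FG under LD in flight, and 13.03 and 12.41 under SD, against 9.32, 10.01, 10.67 and 11.41 in WT. Its ground difference was 6.44 ± 0.60 below its flight difference (−6.44, adjusted p = 0.00659). WRKY70 gave 12.36, 12.35, 11.50 and 11.42 in flown FG and 10.11, 9.59, 9.82 and 10.10 in flown WT (−4.03 ± 0.42, adjusted p = 0.00855). WRKY54 (−4.28 ± 0.61, adjusted p = 0.0325) and SARD1 (−3.34 ± 0.45, adjusted p = 0.0315) had the same pattern, with every flown FG array above every flown WT array for WRKY70, LURP1 and SARD1.

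Other members of the 17 followed the same order. PCC1 gave 13.39, 13.86, 12.55 and 10.52 in flown FG and 10.50, 11.38, 9.48 and 9.78 in flown WT (−5.91 ± 0.87, adjusted p = 0.0355). ANK (−3.97 ± 0.43, adjusted p = 0.00855), AT3G22240 (−5.07 ± 0.63, adjusted p = 0.0253) and AT5G45000 (−2.88 ± 0.41, adjusted p = 0.0325) also had a lower difference on the ground. CYP81D11 was the exception, with a ground difference 1.91 ± 0.27 above that of flight (adjusted p = 0.0325), while its flown signals lay mostly near or below the floor, at most 7.11 in FG and 6.43 in WT. PCC1 and AT3G22240 have 6 annotated genes between them and are not independent in position.

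The number of calls rested on single arrays. Leaving out each of the 16 in turn gave between 1 call (without WT-LD-sp 2) and 36 (without FG-SD-gr 1), with 5 without WT-SD-gr 1. Only without WT-LD-gr 1 (19) or FG-LD-gr 2 (15) did the count stay within 1.5 times. The genes called still changed, with 7 of the 19 and 10 of the 15 among the 17. The signs of all 17 held in every setting run. LURP1 stayed under an adjusted p of 0.05 in 23 of 23 settings, WRKY70 in 22 and ANK in 21. The other named genes lost the call more often: AT3G22240 kept it in 14, WRKY54, SARD1 and AT5G45000 in 10, PCC1 in 9 and CYP81D11 in 8.

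**Figure D5:**
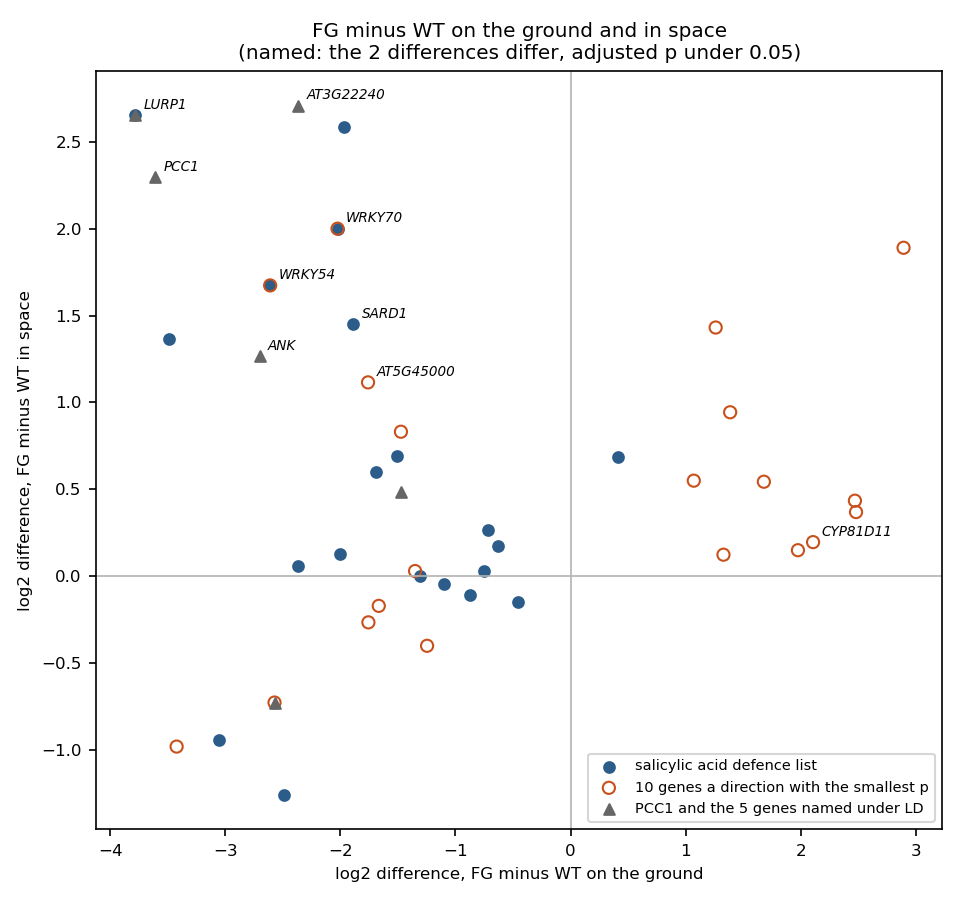
Log2 difference of FG minus WT on the ground (x axis) and on the flown plants (y axis) for the salicylic acid list (blue points), the 10 genes a direction of smallest p on the ground (orange circles), and PCC1 with the genes named under LD (grey triangles). Labels mark the genes called for the difference between ground and flight, of which all but CYP81D11 lie below 0 on the ground and above 0 in flight.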

How the data were processed

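RNA of rosette leaves was hybridised to Affymetrix ATH1 arrays, 1 per sample. Per the labels and the methods of the study, the authors made the values with MAS5 and deposited them as log2 signals with a present call per probe set. Each array had been scaled so that its mean signal, trimmed by 2% at each end, was 500. The deposited values matched those of the series table within 5e-09, and no column was left unmapped.

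Signals below 75 were raised to 75, 64 control probe sets were left out, and probe sets above that floor on both arrays of at least 1 of the 4 ground groups were kept (13212). Of these, 12579 name 1 gene, 577 several and 56 none, and 12478 were matched to a RefSeq symbol (TAIR10.1). Only probe sets with 1 gene are named. With limma 3.58.1 in R 4.3.3 a model of genotype and daylength was fitted to the 8 ground arrays (5 residual degrees of freedom), and group means gave the contrasts under LD, under SD and between them (4 residual degrees of freedom). Adjustment was by Benjamini-Hochberg over all tested probe sets, and a call needed an adjusted p under 0.05 and at least a 2-fold difference. Array measures and FT were tested by two-sided exact permutation. The comparison with flight was fitted to all 16 arrays (14286 probe sets) and was added after the data were seen. A difference against a group wholly below the floor is a bound. The fits were tested on simulated data.

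The comparison and the gene lists were chosen with earlier results of these data known. Named genes were the florigen list and HSP17.4, the 10 genes a direction of smallest p among those at least 2-fold apart without overlap, up to 4 members of each other list by smallest p, and the 5 genes of smallest p under LD, under SD and between them. A gene with several probe sets was taken by the brightest in lists. Of 313 list entries 286 had a probe set of their own and 198 were tested. Alternatives changed the floor, the pseudocount (32), the filter, the scaling, the arrays fitted, the weights, the replicate block and the test.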

Additional observations from a re-analysis of the deposited data

Results flagged for a closer look

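In 9 named genes the difference of FG minus WT on the ground differed from that in flight by the test of the difference itself (limma on 16 arrays, adjusted p under 0.05). Ground minus flight was −6.441 for LURP1, −5.905 for PCC1, −5.074 for AT3G22240, −4.284 for WRKY54, −4.025 for WRKY70, −3.966 for ANK, −3.338 for SARD1, −2.875 for AT5G45000 and 1.911 for CYP81D11. For the first 8 FG was the lower genotype on the ground and the higher one in flight, whereas CYP81D11 was higher in FG on the ground and lay mostly near or below the floor in flight (at most 7.11 in FG and 6.43 in WT). Over 23 settings beside the main one (other processing and leaving out each array) the limma adjusted p stayed under 0.05 in 23 for LURP1, 22 for WRKY70 and 21 for ANK. It did so in 14 for AT3G22240, 10 for WRKY54, SARD1 and AT5G45000, 9 for PCC1 and 8 for CYP81D11. Thus 5 of the 9 lost the call in most settings.

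Single arrays lay far from the other 3 of their genotype in 2 of 80 groups of 4 arrays examined, where chance flags about 1 in 20. FG-LD-gr 1 had 13100 present calls (rounded), and the other FG arrays between 11890 and 12070. COL1 gave 9.699 on WT-SD-gr 2 and between 10.48 and 10.60 on the other WT arrays, while all FG arrays were still lower.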

How the results depend on the processing

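The ground comparisons made 0 calls, also under median, quantile and spike-in scaling, 2 other filters, log2(signal + 32), array weights, a variance trend and a plain unmoderated two-sample test after adjustment. The main comparison gave 4 calls with all 16 arrays in the fit (CYP81D11, adjusted p = 0.00426, LURP1 and ANK, 0.0133, and AT3G45620, 0.042) and 1 without the floor (CYP81D11, 0.0386). LD gave 4 and SD 2 with all 16 arrays, and the difference between daylengths 0. The fit of 16 arrays took its spread from ground and flown arrays together, unlike the main fit. The plain two-sample test, with the 2-fold and same-sign conditions, gave 204 before adjustment, 194 under LD and 132 under SD. It was not run between daylengths. Leaving out 1 array gave 0 to 1 calls in the main comparison (CRK4 without FG-SD-gr 1 and FMO1 without WT-SD-gr 2) and 0 under LD, SD and between them. Spike-in scaling moved the median of all probe sets from 0.018 to 0.127 and the split of 114 higher and 227 lower at an unadjusted p under 0.05 and 2-fold to 170 and 163 (under SD 147 and 225 to 284 and 131). Ground against flight gave 17 calls, 10 without a filter, 9 under spike-in scaling and 1 to 36 without 1 array. The causes were not tested.

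With the replicate number as a block, 0 calls were made in all 4 ground comparisons and 18 for ground against flight. In the main comparison the smallest adjusted p was then 0.0537 (limma), beside 0.188 without the block. At an unadjusted p under 0.05 and 2-fold, 126 probe sets were then higher in FG and 259 lower. Deviations of same-numbered arrays correlated between −0.251 and 0.337, which does not settle whether the numbers pair the arrays.

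Of 1883 values of named genes under alternatives, 1848 kept their direction and side of the threshold, and 28 turned sign. The other 7 include the exact permutation test of FT (p = 0.0286), which was not adjusted and is no call. The rest of the 7 passed the threshold. With array weights GA2OX6 was 0.1543 and LHCA1 0.03857. Without 1 array the lowest and highest values were −0.5854 and 0.09806 for GAI, −0.7589 and 0.1128 for GA2OX6, −0.141 and 0.4717 for GID1A, −1.032 and 0.3117 for LHCB3, −0.6565 and 0.2985 for LHCA1, −0.7174 and 0.3995 for LHCB6, and −0.5437 and 0.2316 for LHCA4. They were −0.7115 and 0.02975 for PDC2, −0.06788 and 0.3238 for RBOHD, −0.02164 and 0.8986 for PI, −0.4548 and 0.04894 for NRT2.1, −0.7998 and 0.2357 for KAT1, −1.164 and 0.5514 for SPL3, and −0.5694 and 0.1266 for FTIP1. The difference in present calls ran from −212.3 to 190.7 and that of actin 3′ against 5′ from −0.0982 to 0.1279. With 2 arrays a group, and signals under the floor without order, small differences and low genes could not be resolved.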

Other observations

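Receptor families and organelle genes, grouped by annotation after their values were seen, leaned low in FG on the ground. Of 28 tested cysteine-rich receptor-like kinases 27 had a negative difference, with a median of −0.66 (−0.07 in flight), and 4 (14.3%) lay below WT on every array, beside 1.93% of all probe sets. CRK36 differed by −2.32 ± 0.45 and CRK4 by −3.09 ± 0.88, and the median was −0.81 without FG-LD-gr 1 and −0.41 without WT-SD-gr 2. Of 48 TIR-NBS-LRR proteins, intracellular immune receptors, 36 had a negative difference with a median of −0.46, and 2 (4.17%) lay below WT on every array.

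All 21 tested genes of the mitochondrial genome had a negative difference, with a median of −0.57 (−0.47 in flight, where 17 were negative), which was −0.37 without WT-SD-gr 1 and −0.89 without WT-SD-gr 2. Of 70 plastid genome genes 66 were negative with a median of −0.49, which was −0.08 under LD and −0.86 under SD, and −0.23 without FG-SD-gr 2. In 13 of them (18.6%) every FG array lay below every WT array, among them ATCG00690, a small photosystem II subunit (−1.51 ± 0.38). Whether the labelling of the RNA bore on these transcripts was not tested.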
